A study of Mus musculus with 6 samples.

Results

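The interleukin-1 family is described here by 8 genes, taken by symbol: the ligand genes Il1a, Il1b and Il18, the antagonist genes Il1rn and Il18bp, and the receptor genes Il1r1, Il1r2 and Il1rap. All 8 were in the table of 55291 genes, and 7 passed the filter on low values that left 12603 genes for testing. The cells were bone marrow-derived macrophages (BMDM) of the mouse, which are cultured from marrow precursors. Of 6 libraries, 3 came from BMDM pretreated with apoptotic cells (AC) and 3 from untreated BMDM. The sources used here give neither the strain, sex and age of the mice nor where the apoptotic cells came from, how many were added, when, or whether any further stimulus was used.

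IL-1α and IL-1β are inflammatory cytokines that act through the same receptor, and macrophages and monocytes are a main source of IL-1β. The receptor IL-1R1 signals only together with its partner chain IL-1RAP, whereas IL-1R2 is a decoy that binds ligand without signalling. The receptor antagonist encoded by Il1rn occupies IL-1R1 without activating it. IL-18, which drives interferon-γ production by lymphocytes, is held in check by the soluble IL-18 binding protein encoded by Il18bp. IL-1β and IL-18 are made as precursors without a classical secretion signal and are cut by caspase-1 in inflammasomes, so a transcript level is not a level of active cytokine.

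The genes lie in several places of the mouse genome (mm10, GENCODE release M21 gene models, all protein-coding). Il1a (chromosome 2, 129299610 to 129309972) and Il1b (chromosome 2, 129364570 to 129371139) are neighbours on the minus strand, 54.6 kb apart. Il1rn (chromosome 2, 24336853 to 24351494) is on the same chromosome at a distance of 105 Mb. Il1r2 (chromosome 1, 40074079 to 40125231) and Il1r1 (chromosome 1, 40225080 to 40317257) are 99.8 kb apart on the plus strand. Il1rap is on chromosome 16 (26581704 to 26730117), Il18 on chromosome 9 (50554827 to 50581840) and Il18bp on chromosome 7 (102014885 to 102018690).

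The stretches just before the start sites of the ligand and antagonist genes are shown because these are the members on which the comparisons turn: Il1b and Il1rn had the largest differences between the groups, and Il18 and Il18bp kept the same order over the 6 libraries. Each is the 250 bases before a RefSeq start site on GRCm38.p6, 5′ to 3′ on the strand of the gene, and RefSeq windows were found for 8 of the 8 genes. The windows are chr2:129309973-129310222 on the minus strand for Il1a, chr2:129371140-129371389 on the minus strand for Il1b, chr2:24336610-24336859 on the plus strand for the first of 3 start sites of Il1rn, chr9:50554450-50554699 on the plus strand for Il18 and chr7:102018233-102018482 on the minus strand for Il18bp. The Il18bp window lies inside its GENCODE gene model, which begins at 102018690 on the minus strand. RefSeq and GENCODE thus place that start differently, and positions are counted from the RefSeq start. Capitals mark matches on either strand to any of 5 motifs, of which TATAAA was added after the sequences had been seen. The motifs were the kappaB consensus, the AP-1 motif TGANTCA, the PU.1 core GAGGAA, the C/EBP core TTGCNNAA and the TATA element TATAAA.
Il1a: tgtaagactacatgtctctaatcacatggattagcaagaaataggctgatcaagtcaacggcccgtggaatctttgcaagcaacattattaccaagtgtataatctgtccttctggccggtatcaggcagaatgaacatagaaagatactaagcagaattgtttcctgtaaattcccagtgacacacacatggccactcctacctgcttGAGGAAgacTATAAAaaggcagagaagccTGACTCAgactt
Il1b: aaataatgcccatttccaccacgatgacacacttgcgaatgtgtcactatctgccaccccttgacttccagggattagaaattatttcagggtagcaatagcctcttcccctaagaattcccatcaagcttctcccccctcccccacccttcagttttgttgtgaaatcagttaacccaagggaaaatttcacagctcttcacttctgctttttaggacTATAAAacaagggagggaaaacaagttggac
Il1rn: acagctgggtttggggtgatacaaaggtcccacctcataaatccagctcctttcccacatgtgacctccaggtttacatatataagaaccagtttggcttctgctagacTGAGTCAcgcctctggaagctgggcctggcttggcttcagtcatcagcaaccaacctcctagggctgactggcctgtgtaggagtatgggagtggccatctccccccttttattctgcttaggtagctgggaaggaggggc
Il18: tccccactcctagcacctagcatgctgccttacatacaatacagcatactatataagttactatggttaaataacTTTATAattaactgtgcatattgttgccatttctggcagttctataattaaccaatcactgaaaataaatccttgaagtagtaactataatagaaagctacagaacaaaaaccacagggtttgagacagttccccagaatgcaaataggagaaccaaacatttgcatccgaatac
Il18bp: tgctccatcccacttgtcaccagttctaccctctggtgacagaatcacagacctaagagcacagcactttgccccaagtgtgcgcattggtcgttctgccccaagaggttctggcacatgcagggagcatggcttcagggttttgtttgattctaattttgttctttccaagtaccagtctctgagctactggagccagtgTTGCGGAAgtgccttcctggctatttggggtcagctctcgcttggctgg

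Il1a and Il1b both held TATAAA at nearly the same place, from -32 to -27 in Il1a and from -31 to -26 in Il1b, counted from the start site. That motif was present in 12.3% of 32544 windows of this length over all genes. In Il18 the match lay on the other strand, from -175 to -170. The window of Il1a also held a PU.1 core from -41 to -36 (present in 23.4% of windows) and an AP-1 motif from -12 to -6 (6.73%). The window of Il1rn shown held an AP-1 motif from -141 to -135. The windows of its other start sites, ending at 24345290 and 24345370, held no match to the 5 motifs. Which start site of Il1rn these cells used was not tested. The window of Il18bp held a C/EBP core from -49 to -42 (9.58%). No capitals other than the TATA element appear in Il1b, and the kappaB consensus (3.92% of windows) matched in none of the 5 windows shown. A match is a string of letters and not a measured binding site, and the motifs do not overlap one another in these windows.

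Reads on genes lay between 19042049 and 32212701 per library, as recovered from the deposited values. Levels are in TPM, a measure of abundance that accounts for the exon length of a gene, after bringing each library to a total of 1000000. Of 10 macrophage markers 10 were above 1 TPM, with Adgre1, which encodes F4/80, between 1641 and 2210 TPM in AC pretreated and between 2135 and 2633 TPM in untreated libraries. Lyz2 stood at 83.7 TPM in untreated replicate 1 against 9270 to 12451 TPM elsewhere. Placental transcripts were found in replicates 1 and 2 of both groups (summed markers of 14.9 to 126 TPM) and were at 0 in replicate 3 of both groups, so differences are also given for these 4 libraries and for the other 2. AC replicate 1 had the lowest value of the 6 libraries for 47.5% of all tested genes. The labels do not say whether replicates were separate cultures or animals, and p-values therefore reflect a spread between libraries that could be technical.

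In each of the 6 libraries the antagonist genes stood above the cytokine genes they counter, Il18bp above Il18 and Il1rn above Il1b. Il18bp was the most abundant member (108 to 231 TPM), followed by Il18 (42.3 to 68.2 TPM), Il1rn (20.8 to 39.4 TPM), Il1b (6.65 to 30.1 TPM), Il1rap (1.69 to 3.08 TPM), Il1a (0.842 to 1.75 TPM), Il1r1 (0.451 to 1.24 TPM) and Il1r2 (at most 0.537 TPM). This order held within each of the 6 libraries. The ranges over libraries overlapped between Il1rn and Il1b, Il1rap and Il1a, Il1a and Il1r1, and Il1r1 and Il1r2, so those neighbours are not separated by the spread between libraries. The ranges of Il18bp, Il18 and Il1rn did not overlap, although the lowest Il18 value (42.3 TPM) was close to the highest Il1rn value (39.4 TPM). TPM here divides by the merged length of all annotated exons of a gene. That length was 5535 bases for Il1rn, 1907 for Il1b, 3026 for Il18bp and 1031 for Il18. Levels of different genes are comparable only as far as it matches the transcripts present, which was not tested.

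**Figure D1:**
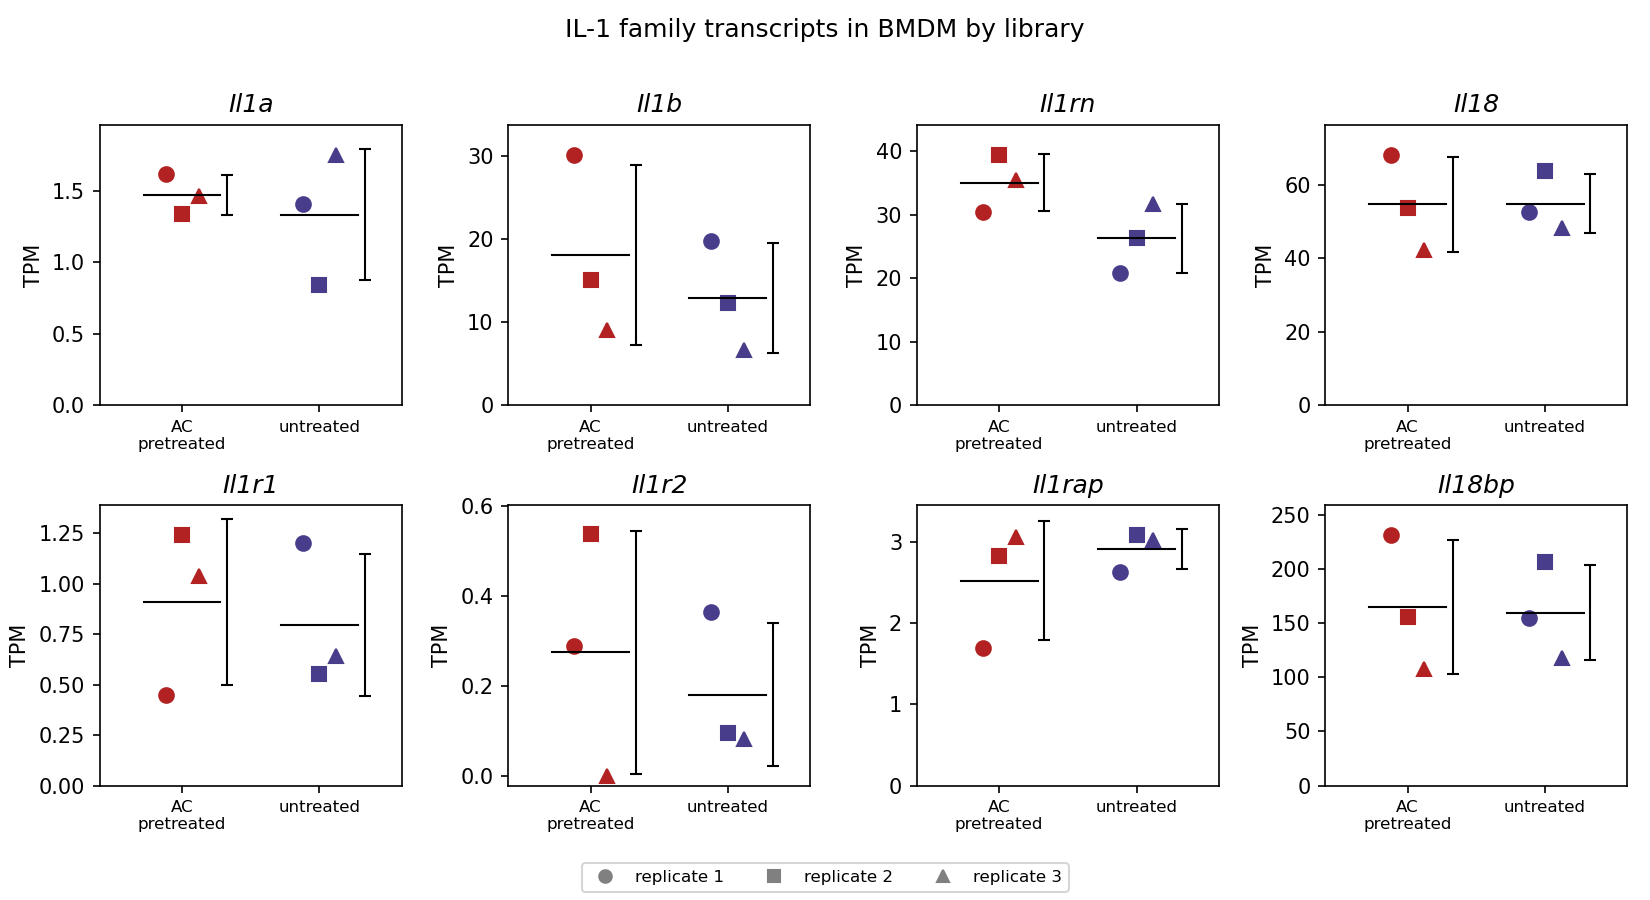
Level of each of the 8 genes in TPM (vertical axes from 0, a scale per gene) in AC pretreated and untreated BMDM. Each point is a library, its shape the replicate number, the line the mean and the bar 1 SD (n = 3 per group); the groups overlap for every gene, and Il1rn has 2 of its 3 AC pretreated libraries (35.4 and 39.4 TPM) above every untreated one.

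The comparison between the groups asked whether AC pretreated macrophages differ from untreated ones in these transcripts. Differences are log2(TPM + 1) in AC pretreated minus untreated libraries, which understates changes of low genes, from limma fitted to all genes with Benjamini-Hochberg adjustment. Of 12603 genes, 0% passed an adjusted p of 0.05, so 0 of the 7 tested members did. At an unadjusted p under 0.05 limma had 164 genes (1.30%), again with 0 of the 7 members. Voom on recovered reads also passed 0 of 12202 genes, with 97 (0.795%) at an unadjusted p under 0.05, of which Il1rn was 1. The groups did not overlap for 4.42% of all genes and for 0 of the 8 members. A higher mean after AC pretreatment was seen for 5 of the 7 tested members, against 29.4% of all genes; with median-of-ratios scaling it was 6 of 7, against 47.4% of all genes. The median difference of the 7 was 0.08, beside -0.07 over all genes. Of the 5 members with higher means, Il1a, Il1b, Il1r1 and Il18bp had differences smaller than their SE. Each turned negative when some single library was left out, at lowest -0.06, -0.02, -0.05 and -0.26 in that order.

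Il1b, the gene of IL-1β, was read at 30.1, 15.1 and 9.05 TPM in AC pretreated replicates 1, 2 and 3, against 19.8, 12.3 and 6.65 TPM in untreated replicates 1, 2 and 3. In both groups replicate 1 was the highest and replicate 3 the lowest, and the groups overlapped. The values rest on 120 to 521 reads in AC pretreated and 81 to 272 reads in untreated libraries. The mean was 18.1 ± 10.9 TPM in AC pretreated and 12.9 ± 6.62 TPM in untreated libraries (SD, n = 3 each), a log2 difference of 0.41 ± 0.46 (SE; 95% interval -0.65 to 1.48; adjusted p = 1.0 by limma). It was 0.43 in replicates 1 and 2 taken alone (4 libraries, all with placental transcripts), against 0.39 between the 2 replicates numbered 3. Without AC replicate 1 the difference was -0.02 and without untreated replicate 3 it was 0.04, while it was 0.80 without AC replicate 3 and 0.76 without untreated replicate 1.

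The spread of Il1b between libraries was wide. Its highest TPM was 4.53 times its lowest. On the log2(TPM + 1) scale its range was 2.02, and 2.19% of the 2506 genes within 1.5-fold of its mean level had as wide a range on that scale. Among 8724 candidate genes, the 3 whose centred log2(TPM + 1) values over the 6 libraries lay nearest to those of Il1b were Etfb, a mitochondrial electron transfer flavoprotein gene (mean distance of 0.20 log2 units), S100a8 (0.25) and Dctpp1, a dCTP pyrophosphatase gene (0.26). S100a8, which encodes a calcium-binding protein abundant in neutrophils, was read at 12.1, 10.6 and 5.18 TPM in AC pretreated and 13.6, 6.78 and 5.41 TPM in untreated replicates 1, 2 and 3. S100a9, another neutrophil marker, was read at 19.6, 7.86 and 14.0 TPM in AC pretreated replicates 1, 2 and 3. In untreated replicates 1, 2 and 3 it was read at 27.7, 16.6 and 12.9 TPM. Its AC replicate 3 was thus above AC replicate 2, unlike Il1b and S100a8. Neutrophils also express Il1b. The 10 neutrophil markers summed to 43.7, 25.7 and 25.6 TPM in AC pretreated and 55.7, 33.4 and 23.9 TPM in untreated replicates 1, 2 and 3, with 3 of the 10 below 1 TPM throughout and the defining marker Ly6g at 0 in all but untreated replicate 1 (0.295 TPM). S100a8 and S100a9 are among the 10 summed markers, and no other of the 10 exceeded 6.94 TPM (Ngp, untreated replicate 1). S100a8 was picked for its likeness to Il1b, so the sum is not independent of that choice. The part of neutrophils in the Il1b values was not tested. In bulk RNA, fewer cells of a type and less RNA per cell cannot be told apart.

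Il1a, the gene of IL-1α, was low in both groups. It was read at 1.62, 1.34 and 1.46 TPM in AC pretreated replicates 1, 2 and 3, against 1.41, 0.842 and 1.75 TPM in untreated ones, and the AC pretreated values lay inside the untreated range. These values rest on 18 to 29 reads per library. The exact 95% Poisson intervals of single libraries, for counting error only, together spanned 0.792 to 2.33 TPM in AC pretreated and 0.499 to 2.64 TPM in untreated libraries. The log2 difference was 0.10 ± 0.26 (SE), with a 95% interval of -0.49 to 0.69. The span of the Il1a gene model overlaps that of Gm14023 on the other strand. Gm14023 stood at 0.0619 to 0.411 TPM in AC pretreated and 0.312 to 0.791 TPM in untreated libraries. With no strand setting given, reads from any exon sequence the pair shares could not be told apart. Overlap of exons was not checked. Il1a did not follow the spread of its neighbour Il1b. The Il1b level was 18.6, 11.3 and 6.21 times that of Il1a in AC pretreated replicates 1, 2 and 3. In untreated replicates 1, 2 and 3 it was 14.1, 14.6 and 3.81 times that of Il1a.

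Il1rn, the gene of the receptor antagonist, was read at 30.4, 39.4 and 35.4 TPM in AC pretreated replicates 1, 2 and 3, against 20.8, 26.3 and 31.7 TPM in untreated ones. AC pretreated replicates 2 and 3 were above every untreated library, and AC pretreated replicate 1 was above untreated replicates 1 and 2 but below untreated replicate 3. With 829 to 1577 reads per library, counting error is small here. The mean was 35.1 ± 4.51 TPM in AC pretreated and 26.3 ± 5.41 TPM in untreated libraries (SD, n = 3 each), a log2 difference of 0.42 ± 0.19 (SE; 95% interval -0.02 to 0.85). This was the smallest p among the 7 members, at an unadjusted p of 0.0582 and an adjusted p of 1.0 by limma, and 6.22% of all tested genes had as large a difference in either direction. With median-of-ratios scaling 1.29% of all genes had an unadjusted p under 0.05, and Il1rn was the 1 member among them, at 0.0344. With voom on recovered reads its unadjusted p was 0.0301. The adjusted p was 1.0 in both, and over all alternatives the adjusted p by limma or voom was at least 0.775. The difference was 0.55 within replicates 1 and 2 (unadjusted p = 0.0424, adjusted p = 0.891 by limma), 0.16 between the replicates numbered 3, and 0.27 without untreated replicate 1. The genes nearest to Il1rn over the 6 libraries were Arrdc4, an arrestin domain gene (mean distance of 0.06 log2 units), Gstm1, a glutathione transferase gene whose reads can be shared with close paralogs (0.06), and Ctsl, the cathepsin L gene (0.07).

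Il1b and the gene of its antagonist had different orders over the libraries. Il1rn was 1.01, 2.62 and 3.91 times as abundant as Il1b in AC pretreated replicates 1, 2 and 3, and 1.05, 2.14 and 4.76 times in untreated replicates 1, 2 and 3. Both replicates numbered 1 had about as much Il1b as Il1rn, and the other 4 libraries had more Il1rn. The log2 ratio of Il1b to Il1rn averaged -1.12 ± 1.0 in AC pretreated and -1.13 ± 1.08 in untreated libraries (SD, n = 3 each), a difference of 0.01 (exact permutation p = 1.0, 2-sided, adjusted p = 1.0 over 4 ratios, where the smallest p of 3 against 3 is 0.1). The spread of this ratio within each group was far larger than the difference between the groups.

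**Figure D2:**
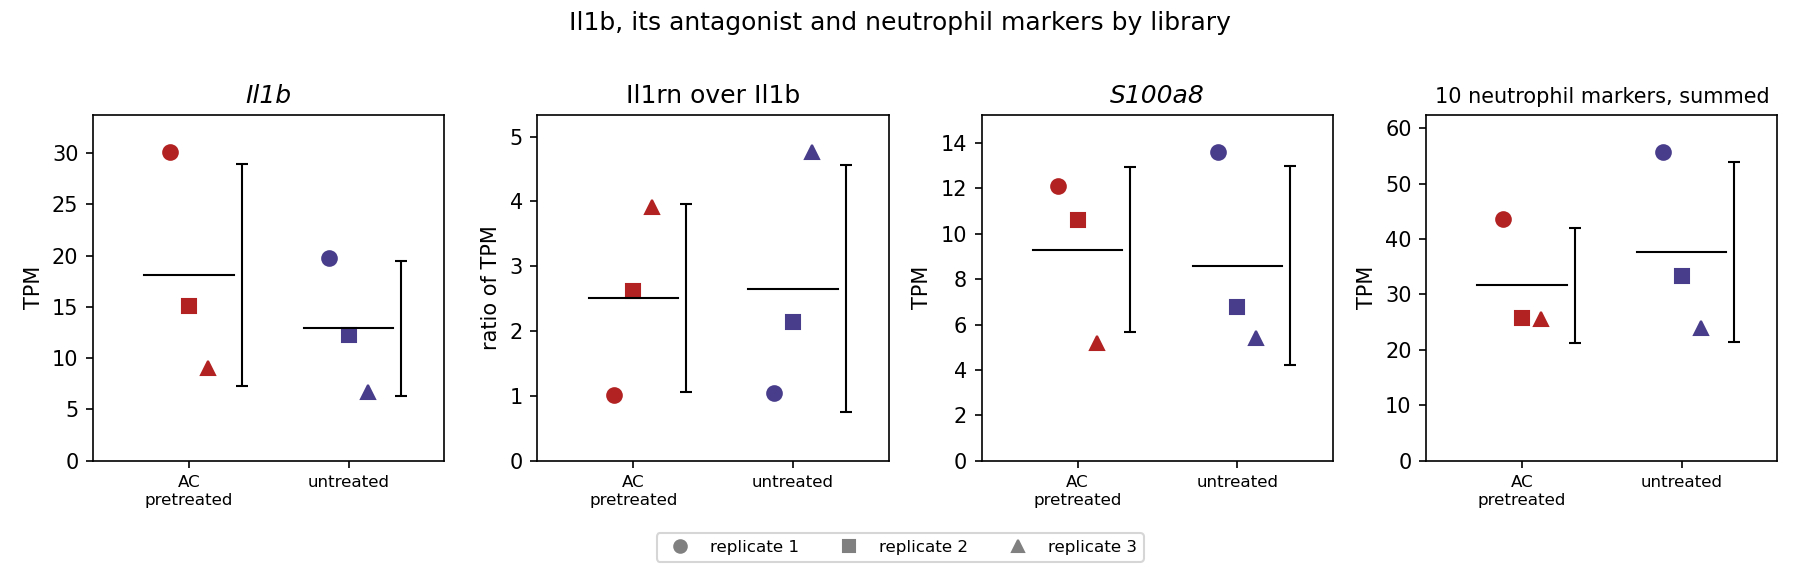
Il1b (TPM), the level of Il1rn divided by that of Il1b, S100a8 (TPM) and the sum of 10 neutrophil markers (TPM) in AC pretreated and untreated libraries. S100a8 was picked for its likeness to Il1b and is among the 10 summed markers. Etfb and Dctpp1, also near Il1b, are not shown. Each point is a library, its shape the replicate number, the line the mean and the bar 1 SD (n = 3 per group); replicate 1 of both groups has the highest Il1b of its group (30.1 and 19.8 TPM) and the lowest ratio (1.01 and 1.05).

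Il18 and the gene of its binding protein were abundant and did not differ beyond their spread. Il18 was read at 68.2, 53.8 and 42.3 TPM in AC pretreated replicates 1, 2 and 3, against 52.7, 63.8 and 48.4 TPM in untreated ones. The untreated values lay inside the AC pretreated range. The log2 difference was -0.02 ± 0.20 (SE; 95% interval -0.48 to 0.44), and 0.05 with median-of-ratios scaling. Il18bp was read at 231, 156 and 108 TPM in AC pretreated replicates 1, 2 and 3, against 155, 206 and 118 TPM in untreated ones, from 2271 to 6760 reads per library. Its untreated values also lay inside the AC pretreated range, and the log2 difference was 0.01 ± 0.30 (SE; 95% interval -0.66 to 0.69).

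Il18 and Il18bp had the same order over the libraries, from AC replicate 1 at the top through untreated replicate 2, AC replicate 2, untreated replicate 1 and untreated replicate 3 to AC replicate 3. How many other genes share this order was not counted, so it is not shown to be particular to the pair. The ratio between Il18bp and Il18 varied little. Il18bp was 3.38, 2.89 and 2.55 times as abundant as Il18 in AC pretreated and 2.93, 3.23 and 2.44 times in untreated replicates 1, 2 and 3. The ratio was highest in AC replicate 1, where both genes were highest. It was lowest in the replicates numbered 3, where both genes were lowest. The log2 ratio of Il18 to Il18bp averaged -1.55 ± 0.20 in AC pretreated and -1.51 ± 0.21 in untreated libraries (SD, n = 3 each), a difference of -0.04 (exact permutation p = 0.8, 2-sided, adjusted p = 1.0 over 4 ratios). Its SD within a group was about 0.2 log2 units, against 1.0 and 1.08 for Il1b and Il1rn. The difference of Il18bp was 0.08 within replicates 1 and 2 and -0.13 between the 2 replicates numbered 3, and that of Il18 was 0.06 and -0.19. The span of the Il18bp gene model touches that of Numa1 on the other strand. Numa1 stood at 46.3 to 88.8 TPM in AC pretreated and 56.9 to 81.3 TPM in untreated libraries. The span of Il18 overlaps that of Bco2 (4.01 to 5.21 TPM in AC pretreated and 5.06 to 6.17 TPM in untreated libraries). The same limit would hold for any exon sequence these pairs share, and overlap of exons was not checked.

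**Figure D3:**
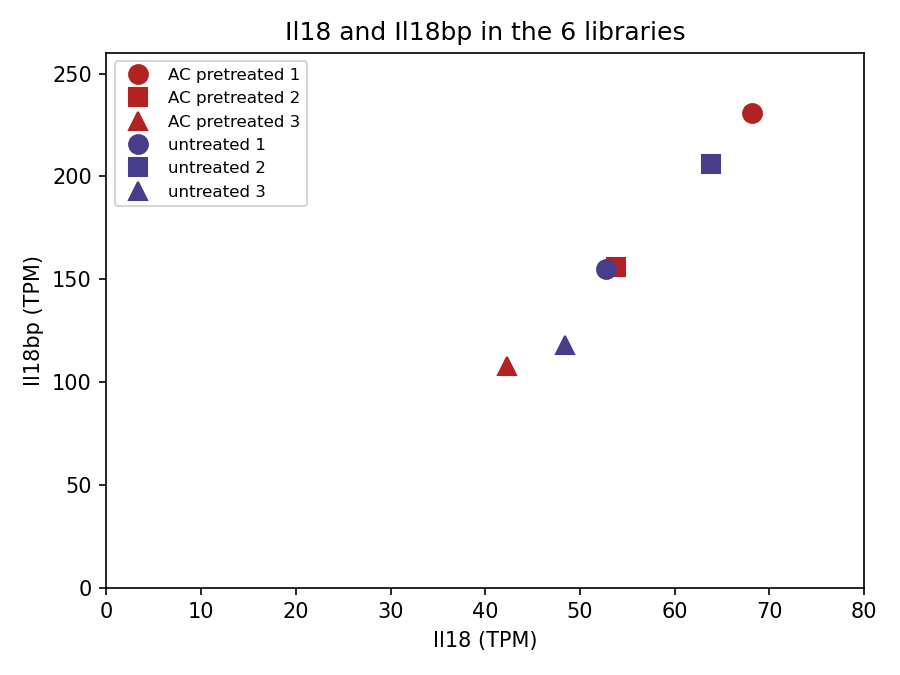
Il18bp (vertical axis, TPM) against Il18 (horizontal axis, TPM) in the 6 libraries, both axes from 0; each point is a library, red for AC pretreated and dark blue for untreated, its shape the replicate number. The points run along a line from AC replicate 3 (42.3 and 108 TPM) to AC replicate 1 (68.2 and 231 TPM), with the 3 untreated libraries between them.

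The receptor genes were low in these macrophages. Il1rap, the gene of the shared signalling partner, was read at 1.69, 2.82 and 3.06 TPM in AC pretreated replicates 1, 2 and 3, against 2.63, 3.08 and 3.02 TPM in untreated ones. AC replicate 1 stood below all others. The log2 difference was -0.17 ± 0.24 (SE; 95% interval -0.72 to 0.38), and 0.01 without AC replicate 1. Il1r1, the gene of the signalling receptor, was read at 0.451, 1.24 and 1.04 TPM in AC pretreated replicates 1, 2 and 3, against 1.20, 0.551 and 0.640 TPM in untreated ones, from 26 to 55 reads per library. Both groups held high and low libraries, and the log2 difference was 0.08 ± 0.30 (SE; 95% interval -0.60 to 0.76). It was 0.27 without AC replicate 1, 0.24 without untreated replicate 1 and between -0.05 and 0.02 without any 1 of the others. For Il1rap and Il1r1 AC replicate 1 had the lowest value, whereas it had the highest for Il1b, Il18 and Il18bp. Of all tested genes, 47.5% had their lowest value in that library and 11.6% their highest.

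Il1r2, the gene of the decoy receptor, was the member below the filter. It was covered by 5, 7 and 0 reads in AC pretreated replicates 1, 2 and 3, and by 5, 2 and 1 reads in untreated ones, or 0.289, 0.537 and 0 TPM against 0.364, 0.0968 and 0.0821 TPM. The library with 0 reads allows up to 0.226 TPM (3 reads, counting error only), which is above the untreated values of replicates 2 and 3. A difference was not detectable at this depth. The log2 ratio of Il1r2 to Il1r1 averaged -1.70 ± 1.60 in AC pretreated and -1.75 ± 0.27 in untreated libraries (SD, n = 3 each), a difference of 0.05 (exact permutation p = 1.0, 2-sided).

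**Figure D4:**
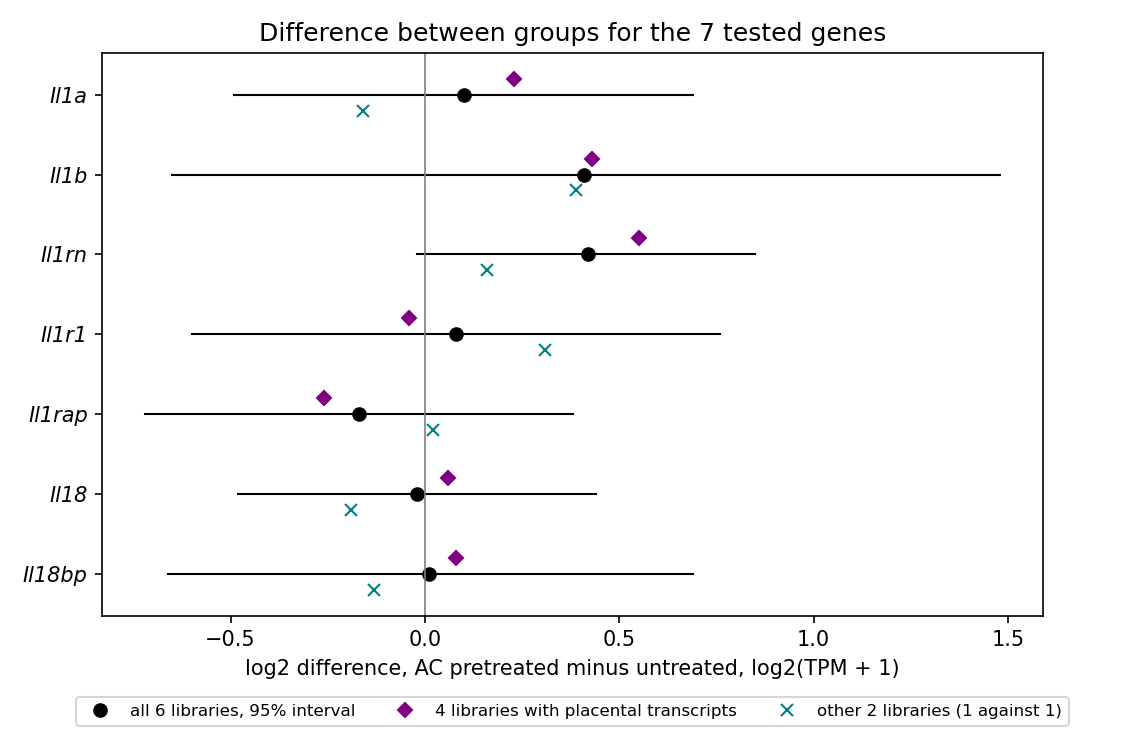
Log2 difference between AC pretreated and untreated libraries on the log2(TPM + 1) scale (horizontal axis) for the 7 tested genes; black points with bars are all 6 libraries with the 95% interval from limma, diamonds replicates 1 and 2 (with placental transcripts) and crosses the replicates numbered 3. Every interval includes 0. Il1b and Il1rn lie right of 0 in all 3 estimates, at 0.39 to 0.43 for Il1b and 0.16 to 0.55 for Il1rn. The estimates are not independent, as the first holds the libraries of the others, and Il1b was at -0.02 without AC replicate 1.

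Most other ligands and receptors of the family were at or near 0. Of 13 such genes, 10 stayed below 1 TPM in all libraries and 6 were at 0 in all of them: the ligand or antagonist genes Il36a, Il36b, Il36rn and Il1f10 (the first 3 listed under older symbols) and the receptor-like genes Il1rapl1 and Il1rapl2. The IL-33 gene reached 0.0498 TPM and the gene of its receptor, Il1rl1, 0.659 TPM. Il18r1, which encodes the ligand-binding chain of the IL-18 receptor, stayed at or below 0.179 TPM, while Il18rap, its partner chain, lay between 0.751 and 1.15 TPM in AC pretreated and between 0.858 and 1.81 TPM in untreated libraries. The 2 tested genes were Sigirr, an inhibitory receptor gene (1.30 ± 0.392 TPM in AC pretreated and 1.13 ± 0.273 TPM in untreated libraries, SD, n = 3 each; log2 difference of 0.10), and the IL-36 receptor gene Il1rl2 (0.970 ± 0.148 TPM in AC pretreated and 1.03 ± 0.178 TPM in untreated libraries; -0.04). Neither passed the test.

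Of 23 genes that carry the signal from IL-1 and IL-18 receptors, 22 were tested and 0 passed. Lower means after AC pretreatment were seen for 20 of 22, against 70.6% of all genes, with a median log2 difference of -0.11 beside -0.07 over all genes. With median-of-ratios scaling it was 17 of 22, against 52.6% of all genes. AC replicate 1 had the lowest value of the 6 libraries for 18 of the 22 genes (81.8%), against 47.5% of all genes. Without it 10 of 22 had lower means, and the median difference over all genes moved to 0.01. The share of all genes with lower means in that fit was not counted. Myd88, the adaptor gene and the most abundant of the list, averaged 182 ± 32.3 TPM in AC pretreated and 207 ± 27.5 TPM in untreated libraries (SD, n = 3 each), a log2 difference of -0.19 ± 0.17 (SE). The kinase genes Irak2 and Irak3, the second of which encodes an inhibitory member, differed by -0.20 ± 0.15 and -0.16 ± 0.15, and Mapk14, the p38α gene, by -0.20 ± 0.16. On leaving out 1 library Myd88 ranged from -0.32 to -0.06 and Irak2 from -0.29 to -0.11.

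Of 15 genes for the maturation and release of IL-1 and IL-18, 15 were tested and 0 passed. Lower means were seen for 11, near the 70.6% of all genes, or for 10 with median-of-ratios scaling (52.6% of all genes), at a median difference of -0.08. Without AC replicate 1 lower means were seen for 7, in a fit where the median difference over all genes was 0.01. Ninj1, which encodes the protein that ruptures the membrane of dying cells, was the most abundant and had the smallest p, at 392, 375 and 274 TPM in AC pretreated replicates 1, 2 and 3 against 301, 285 and 255 TPM in untreated ones. Its AC replicates 1 and 2 were above every untreated library, and the log2 difference was 0.29 ± 0.17 (SE). Nlrp3, the gene of the inflammasome sensor that triggers IL-1β cleavage, was read at 19.6, 22.9 and 31.1 TPM in AC pretreated against 41.0, 31.9 and 20.6 TPM in untreated replicates 1, 2 and 3. Its log2 difference of -0.31 ± 0.27 (SE) was -0.75 within replicates 1 and 2 and 0.57 between the replicates numbered 3, so its direction turned. Aim2, the DNA sensor gene, differed by -0.17 ± 0.16 and Casp4, the gene of the noncanonical inflammasome caspase, by -0.22 ± 0.22. The caspase-1 gene Casp1 averaged 201 ± 36.3 TPM in AC pretreated and 216 ± 14.6 TPM in untreated libraries.

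Known target genes of IL-1 and NF-kB signalling gave 0 passes among 13 tested of 17, with 10 lower means (6 with median-of-ratios scaling), against 70.6% of all genes (52.6% with that scaling), and a median difference of -0.04. Some classical targets were nearly silent in both groups: Il6, Cxcl1, Cxcl3 and Ptgs2 stayed below 1 TPM in all libraries. Ccl2, a monocyte chemokine gene, was the most abundant, at 222 ± 52.3 TPM in AC pretreated and 240 ± 46.4 TPM in untreated libraries (SD, n = 3 each). Zfp36, which encodes an mRNA-destabilising protein, was the 1 gene of 52 tested in these lists whose groups did not overlap (1.92%, below the 4.42% of all genes), at 214, 228 and 239 TPM in AC pretreated against 207, 210 and 196 TPM in untreated replicates 1, 2 and 3, a log2 difference of 0.15 ± 0.12 (SE). Icam1, Tnf and Nfkb2 differed by -0.30 ± 0.20, -0.22 ± 0.17 and -0.18 ± 0.20. Icam1 was at -0.57 within replicates 1 and 2 and at 0.23 between the replicates numbered 3, and Nfkb2 at -0.44 and 0.33, while Tnf was at -0.24 and -0.17.

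**Figure D5:**
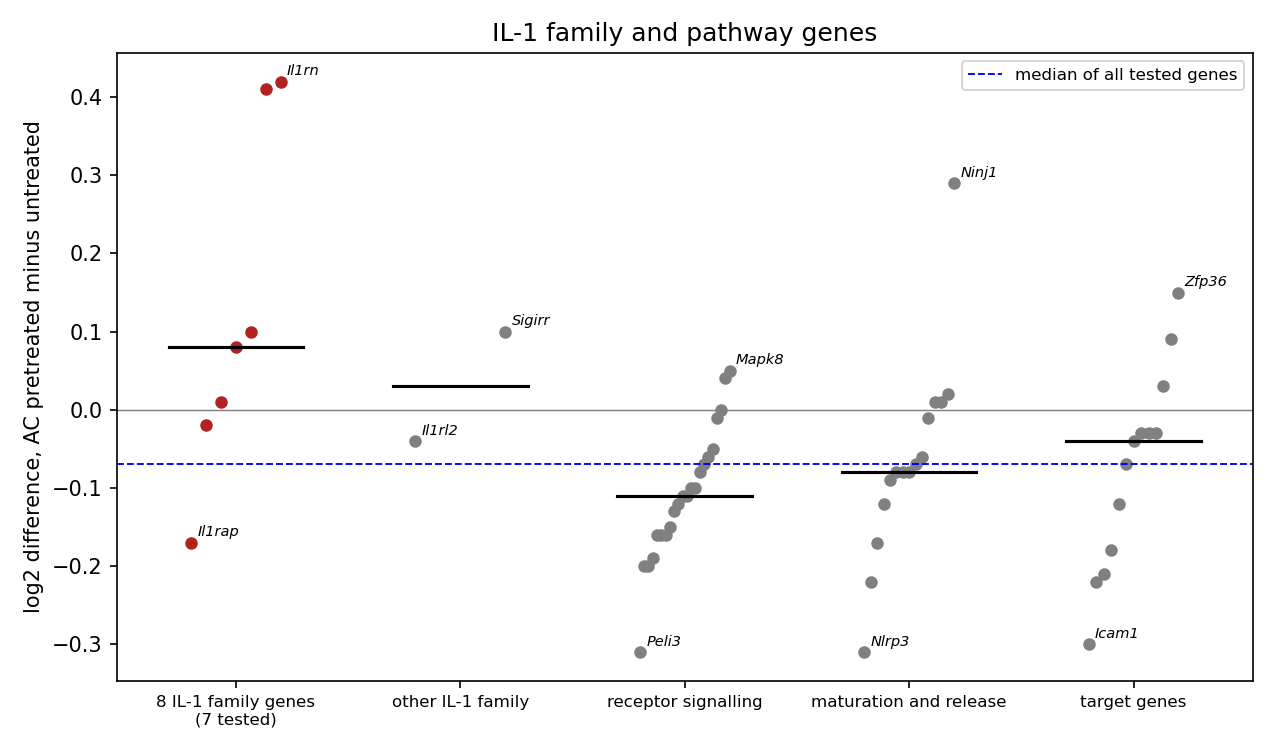
Log2 difference between AC pretreated and untreated libraries (vertical axis) for each tested gene of the IL-1 family and of 4 pathway lists; each point is a gene, black lines are list medians and the dashed line the median of all tested genes (-0.07). Il1rn and Il1b lie highest (0.42 and 0.41), and the signalling genes have a median of -0.11; no point passed the test.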

How the data were processed

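Poly(A) RNA of 3 AC pretreated and 3 untreated BMDM libraries was read from both ends on an Illumina instrument (per the labels' protocols). STAR 2.7.10a, Subread, featureCounts 2.0.3 and mm10 are named in the submitters' processing notes. The sources used here give no annotation, strand setting, filter or treatment of multiply mapped reads. The authors deposited 1 signal per gene and library, named as TPM, but columns summed to 54732 to 92831. The deposited signal was multiplied by merged GENCODE release M21 exon length and divided by a shared factor of 8.57. The result was whole reads in all libraries for 98.5% of 23829 genes (tolerance of 0.02 reads). By chance, 4% of single values would be whole.

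Columns were rescaled to sum to 1000000. The test was limma 3.58.1 under R 4.3.3 (eBayes with trend, 2-sided) on log2(TPM + 1), over genes reaching 1 TPM in 3 or more libraries; it was kept although its design had assumed deposited TPM. Ratios used TPM + 0.1 and exact permutation. Other steps ran on scipy 1.17.1, numpy 2.4.6, pandas 2.3.3 and matplotlib 3.10.9 (Python 3.11.15). Fits were tested on simulated data. No pair of libraries in a group agreed within sampling noise by a chi-square test, so none was treated as deposited in duplicate; the test does not show separate cultures.

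Members and lists were chosen with earlier results of these data known. Named genes were all members, for each list the 4 smallest unadjusted p and the most abundant gene, and for Il1b and Il1rn the 3 nearest genes with a mean of at least 5 TPM. Casp1, Il18rap, Il1rl1, Il18r1, the genes named as silent or at 0, and cell type markers fall outside that rule and were chosen after their values were seen. Alternatives were another pseudocount, filter, scaling and variance model, voom on recovered reads, the replicate block and leaving out each library; fits by placental transcripts were added after seeing the data.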

Additional observations from a re-analysis of the deposited data

How the results depend on the processing

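In the test over all genes, 0 passed under each alternative run but limma without a variance trend, where 1 did (Gm22279, chosen after its value was seen). No member passed under any alternative. Correlations of deviations from group means between same-numbered libraries were -0.06, 0.01 and 0.17, against 0.34 for AC replicate 1 with untreated replicate 2. These correlations do not show a pairing by replicate number. Placental transcripts did go by number, being found in replicates 1 and 2 of both groups, and a source shared by number was not tested. With the replicate block 0 genes passed, and the log2 difference of Il1b stayed at 0.41 with an unadjusted p of 0.0854 (adjusted p = 1.0 by limma). In the block, log2 ratios differed by 0.01 for Il1b to Il1rn and -0.26 for Il1a to Il1b.

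Directions turned, always far from the threshold. Il18 was at 0.05 with median-of-ratios scaling, 0.02 with voom on recovered reads and 0.06 among the 4 libraries with placental transcripts. In those 4 libraries Il1r1 was at -0.04 and the ratio of Il1b to Il1rn at -0.12, and over all 6 libraries that ratio was at -0.00 with a pseudocount of 1. Between the other 2 libraries Il1a was at -0.16, Il1rap at 0.02, Il18bp at -0.13 and the ratio of Il1r2 to Il1r1 at -1.49. Lower means numbered 1 of 7 members under median-of-ratios scaling and 1 under voom, 6 target genes under each of the same 2, and 2 other family genes without a filter. Cause was not tested.

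On leaving out 1 library, differences ranged from -0.06 to 0.23 for Il1a, -0.02 to 0.80 for Il1b, 0.27 to 0.56 for Il1rn, -0.05 to 0.27 for Il1r1, -0.28 to 0.01 for Il1rap, -0.19 to 0.15 for Il18 and -0.26 to 0.28 for Il18bp. Ratios ranged from -0.54 to 0.54 for Il1b to Il1rn, -0.66 to 0.36 for Il1a to Il1b, -0.13 to 0.08 for Il18 to Il18bp and -0.55 to 0.96 for Il1r2 to Il1r1. Lower means ranged from 1 to 3 members, 0 to 1 other family genes, 10 to 22 signalling, 7 to 13 maturation and 8 to 10 target genes. Over all genes the median difference in these fits ranged from -0.11 to 0.01. Il1rn was the 1 tested member whose sign held in every setting run. Read number limits Il1a, Il1r1 and Il1r2 most.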
